A study of Homo sapiens with 30 samples.

Results

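The genes of cholesterol and fatty acid synthesis were followed in 2 human glioblastoma cell lines, U87 (U87-MG) and U251 (U251-MG), that were exposed to the cytokine interferon-γ (IFN-γ) for up to 28 days. The 32 genes were chosen by symbol, and all 32 were found among the 61471 rows of each deposited table. They comprise 7 genes of the mevalonate pathway, 12 that carry squalene to cholesterol, 4 regulators (the SREBP factors and the INSIG anchors), 4 of fatty acid synthesis and desaturation, and 5 of sterol transport, efflux and oxysterol synthesis. Each line was studied without IFN-γ (Untreated), after 3, 14 or 28 days in it (D3, D14, D28), and at day 28 when the last 14 of those days were spent without it (D28WO). All groups share the wild-type genotype given by the labels and the same serum-containing medium, and no group was kept for 28 days without IFN-γ, so in the comparisons of D14, D28 and D28WO with Untreated time in culture cannot be told apart from exposure. D28 and D28WO were both collected on day 28. The Untreated cells were collected on day 3 according to the labels, whereas the study counts them as day 0. By the study's count the comparison of D3 with Untreated differs in time in culture too. The dose is given differently in the labels and in the study and is not stated here. Both lines are established cultures that the study describes as commonly misidentified and did not authenticate again, and each stands for 1 line only.

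Cells make cholesterol from acetyl-CoA through the mevalonate pathway, then squalene and a series of sterol intermediates. The transcription factors SREBF1 and SREBF2 (SREBP-1 and SREBP-2) switch on most of these enzymes, together with those of fatty acid synthesis and desaturation, when sterols in the endoplasmic reticulum run low. INSIG1 and INSIG2 hold the SREBP precursors there when sterols are plentiful, and oxysterols act through INSIG and through the LXR receptors, whose targets export cholesterol (ABCA1, ABCG1) or remove lipoprotein receptors (MYLIP). CH25H makes an oxysterol and is known as an interferon-stimulated gene in immune cells.

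The data are TPM, transcript abundances scaled for length and to 1 total, in tables normalized separately, so that the lines were never tested against each other. U251 has 15 libraries, 3 in each group, and U87 has 13, because 2 columns of its table carry the same name and were left out, which leaves 2 libraries at D3 (replicates 2 and 3) and 2 at D14 (replicates 2 and 3). The total is equal in all libraries, which leaves the depth unknown, and 24223 to 28649 genes were above 0 in U87 and 24450 to 30246 in U251. The interferon response gene IRF1 was not above Untreated in the D14 group of U87, which is labelled as under IFN-γ. The reason was not tested. In U87, IRF1 lay at 130.1 to 136 TPM in Untreated, 445 to 450.1 at D3, 443 to 539 at D28 and 457 to 545 at D28WO, but at 109.8 to 134 at D14, which overlapped Untreated. In U251 IRF1 was above Untreated in every library of the other groups, at 137 to 145 TPM in Untreated, 514 to 721 at D3, 288 to 321 at D14 and 588 to 663 at D28WO, where IFN-γ had been withdrawn according to the labels. In both lines D28WO was thus at about the level of D28 for this gene, which lay at 559 to 674 TPM at D28 in U251, so it does not tell the libraries labelled D28WO from those labelled D28, and withdrawal is named here only as the labels give it. Of the 9 glioma and neural stem cell markers, VIM, NES, CD44 and CHI3L1 were expressed in both lines, and SOX2 was at most 0.411 TPM in U87. The summed level of the 9 in U251 went from 3735 to 3808 TPM in Untreated to 1519 to 1858 at D3. It was 2600.0 to 3007 at D14, 1694 to 1935 at D28 and 2124 to 2198 at D28WO. The sum of the 3 endothelial markers of U251 went from 26.6 to 38.4 TPM in Untreated to 2.45 to 3.46 at D3. Most of this was CDH5, at 25.2 to 31.0 TPM in Untreated and 0.492 to 0.651 at D3. PECAM1 and VWF overlapped between these 2 groups. Over all libraries of both lines the markers of T and B cells summed to at most 5.75 TPM and those of epithelial cells to at most 9.87. Of the macrophage markers AIF1 was at 0 in every U87 library and at most 0.892 TPM in U251, whereas CD68 was expressed in both. CD14 went from 0.191 to 1.26 TPM in Untreated to 3.11 to 5.75 at D3 in U251. In U87 at D28WO, CSF1R was at 11.2 to 22.9 TPM (47.3 to 59.4 in Untreated), the epithelial marker EPCAM at 1.03 to 1.38 (3.14 to 9.29) and OLIG2, of the glial lineage, at 22.0 to 32 (4.94 to 9.49). The part of these marker changes in the results below was not tested.

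Groups were compared within a line with limma on log2(TPM + 1), over the 22918 genes of U87 and 23667 of U251 with a mean of at least 0.5 TPM, and a gene was called with an adjusted p under 0.05. All 32 genes passed this filter in U251 and 31 in U87, where ABCG1, a cholesterol exporter, was at most 1.21 TPM. The median of all genes tested was itself shifted against Untreated, by 0.20 (D3), 0.15 (D14), 0.19 (D28) and 0.25 (D28WO) in U87, and by 0.13, 0.096, 0.16 and 0.015 in U251 (log2 fold change). After quantile normalization these medians lay between -0.026 and -0.005, and with median-ratio size factors between 0 and 0.065. Medians of the lipid genes are therefore also given relative to it. The comparisons with Untreated share those libraries, and they are set side by side without a test between them. The p-values measure the spread between the replicate cultures of each group, in 1 line. According to the study, cultures were divided between continued IFN-γ and withdrawal, so libraries of D28 and D28WO may descend from shared cultures. Which of them do is not given, and the main fit treats all libraries as independent. For each called gene the fit was repeated with another pseudocount, with quantile normalization, with median-ratio size factors, with the replicate number as a block, and without each library in turn, and a call is said to hold where it passed in all of these.

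Without IFN-γ both lines expressed nearly all of these genes. In U251, SCD was highest, at 195 ± 10.2 TPM (SD, n = 3), followed by FDPS at 172 ± 16.7 and INSIG1 at 171 ± 3.15, and the last of these means differ by less than their spread. MYLIP (13.1 ± 2.35), CH25H (11.7 ± 1.43) and ABCG1 (0.708 ± 0.231) were lowest. In U87, FDPS (192 ± 37.1), INSIG1 (185 ± 10.8) and EBP (164 ± 9.08) led, and CH25H (2.65 ± 0.787), MYLIP (2.53 ± 1.04) and ABCG1 (0.165 ± 0.142) were again lowest. TM7SF2 stood at 13 ± 4.61 TPM in U87 and 102 ± 7.50 in U251, and FADS2 at 33.4 ± 7.18 and 122 ± 6.39, levels set across separately normalized tables and not tested.

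In U251, most of the cholesterol and fatty acid synthesis genes fell by D3. Of the 32 genes, 23 were lower and 2 higher, where 16.0% of all genes tested were called lower and 24.9% higher. The median log2 fold change of the 32 was -0.64, which is -0.77 relative to all genes, and 28 of them were negative. The deepest falls were those of a desaturase, a sterol reductase and a regulator, with FADS2 at 17.2% of its Untreated mean, TM7SF2 at 24.9% and INSIG1 at 37.8%. Abundant genes outside lipid synthesis were lower too, with ACTB (actin) at 1459 to 1547 TPM in Untreated and 748 to 826 at D3, GAPDH (a glycolytic enzyme) at 1016 to 1083 and 498 to 700.3, and EEF1A1 (a translation factor) at 1008 to 1054 and 670.4 to 678, and their part in the result was not tested. With median-ratio size factors the split was 1 higher and 27 lower (20.5% and 19.9% of all genes). The 2 genes that rose were MYLIP and SC5D. All calls kept their direction in each of these fits, and 23 of the 25 calls held. The exceptions were SC5D, and PMVK without Untreated replicate 1 and without D3 replicate 2.

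**Figure D1:**
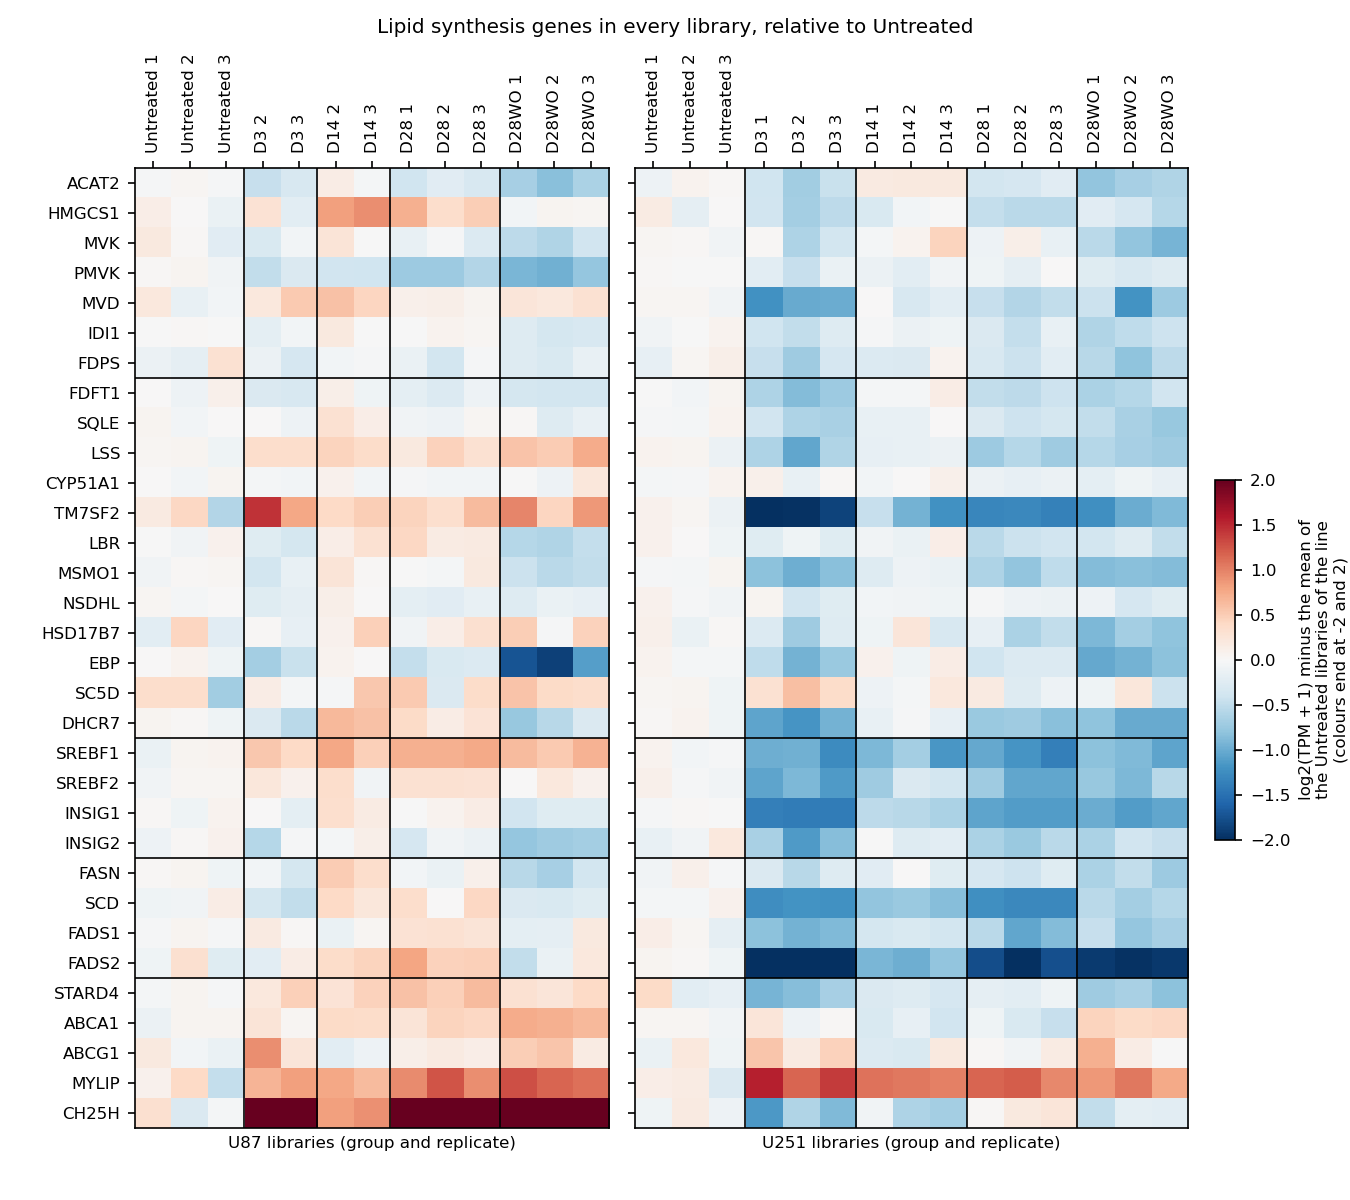
Each row is 1 of the 32 genes, ordered by role with black lines between roles, and each column is 1 library, with U87 on the left and U251 on the right. Colour gives log2(TPM + 1) minus the mean of the Untreated libraries of the line, blue for lower and red for higher, and ends at -2 and 2. The U251 columns are mostly blue at D3, D28 and D28WO and paler at D14, while U87 holds rows of both colours.

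The mevalonate pathway builds isoprenoid units from acetyl-CoA, and 6 of its 7 genes were lower in U251 at D3, with a median of -0.50. MVD, the decarboxylase that makes isopentenyl diphosphate (chromosome 16, 88651935 to 88663161), was at 61.5, 61.6 and 56.8 TPM in Untreated and at 25.3, 29.5 and 29.6 TPM at D3. The groups did not overlap, with a log2 fold change of -1.07 with a standard error of 0.15 (limma, adjusted p = 6.66e-05). HMGCS1, the synthase that commits acetyl-CoA units to the pathway (chromosome 5, 43287470 to 43313512), was at 66.4, 52.0 and 59.4 TPM in Untreated and 44.8, 36.3 and 40.7 TPM at D3, again without overlap, and fell by 0.53 on the log2 scale (limma, adjusted p = 0.0022). ACAT2, which makes acetoacetyl-CoA, and FDPS, the farnesyl diphosphate synthase, had log2 fold changes of -0.51 and -0.50, and the isomerase IDI1 and the kinase PMVK of -0.38 and -0.27. The mevalonate kinase MVK was not called, at -0.32 (95% interval -0.68 to 0.032; limma, adjusted p = 0.137).

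Between squalene and cholesterol, 7 of 12 genes were lower in U251 at D3 and 1 was higher (median -0.64). TM7SF2, a sterol reductase that acts after the first demethylation of lanosterol (chromosome 11, 65111845 to 65116384), was at 108, 105 and 94.0 TPM in Untreated and 23.8, 25.3 and 27.4 TPM at D3. Every D3 library lay below every Untreated one, with a log2 fold change of -1.96 with a standard error of 0.15 (limma, adjusted p = 1.94e-07). LBR, a nuclear envelope protein with the same reductase activity, had a log2 fold change of -0.19 that was not called (95% interval -0.37 to -0.004). DHCR7, which catalyses the last step to cholesterol (chromosome 11, 71428193 to 71452868), went from 131, 136 and 122 TPM to 62.0, 56.6 and 67.0 TPM, again without overlap, and had a log2 fold change of -1.06 with a standard error of 0.077 (limma, adjusted p = 1.40e-07). The other genes that fell were MSMO1 (-0.88), LSS (-0.76), FDFT1 (-0.74), EBP (-0.73) and SQLE (-0.55), the demethylase, cyclase, squalene synthase, isomerase and epoxidase of this branch. SC5D, a sterol desaturase, rose from 71.7, 72.6 and 66.0 TPM to 86.3, 107 and 90.7 TPM (log2 fold change 0.42; limma, adjusted p = 0.04), a call that was lost with quantile normalization, median-ratio size factors and the replicate block, and in 8 of the fits without 1 library. CYP51A1, the lanosterol demethylase, was at 71.7, 72.0 and 77.2 TPM in Untreated and 79.0, 66.0 and 74.8 TPM at D3, groups that overlapped, with a 95% interval of -0.16 to 0.14 for the log2 fold change. NSDHL (-0.19) and HSD17B7 (-0.41), which remove methyl groups together with MSMO1, were not called either. HSD17B7, FDPS and CYP51A1 have processed pseudogene copies that can share their reads.

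Each of the 4 regulators fell in U251 at D3, with a median log2 fold change of -1.05. INSIG1 (chromosome 7, 155297776 to 155310235) was at 169, 175 and 171 TPM in Untreated and 65.9, 64.3 and 64.1 TPM at D3. Replicates of INSIG1 differed by little next to this drop, with a log2 fold change of -1.39 with a standard error of 0.051 (limma, adjusted p = 1.12e-10). SREBF1 (chromosome 17, 17810399 to 17837002) went from 122, 113 and 115 TPM to 58.9, 59.4 and 48.1 TPM and SREBF2 (chromosome 22, 41833105 to 41907306) from 115, 105 and 102 TPM to 50.9, 56.7 and 48.4 TPM. Neither factor had a D3 library within the Untreated range, and their log2 fold changes were -1.06 and -1.03 (limma, adjusted p = 1.13e-05 and 1.81e-05). INSIG2 fell from 109, 114 and 139.7 TPM to 76.7, 54.5 and 66.4 TPM, by 0.87 on the log2 scale.

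SREBP factors bind sterol regulatory elements next to the factor NF-Y, so the promoter windows of the 32 genes were searched for TCACNCCAC (a core of the sterol regulatory element) and CCAAT (NF-Y), on both strands. RefSeq windows on GRCh38.p14, from 250 bases before to 50 after a start, were given for 27 of the 32 genes, 34 windows in all, among 35116 windows of all genes. CCAAT stood in 21 of the 34 windows, or 61.8%, beside 34.6% of all windows. TCACNCCAC stood in 1 of them, that of SREBF2, beside 1.13% of all windows. The windows were not matched for base composition, and a match of letters is not a binding site. Up to 250 bases before the start, ending where the GENCODE gene begins, are shown 5′ to 3′ along the gene for 5 genes that fell in U251 at D3 and for MYLIP, which rose there, chosen among the windows that hold a motif, with matches to TCACNCCAC, CCAAT and their reverse complements in capitals (the run that reads ATTGG is CCAAT on the other strand).
SREBF2, chr22:41832855-41833104, plus strand: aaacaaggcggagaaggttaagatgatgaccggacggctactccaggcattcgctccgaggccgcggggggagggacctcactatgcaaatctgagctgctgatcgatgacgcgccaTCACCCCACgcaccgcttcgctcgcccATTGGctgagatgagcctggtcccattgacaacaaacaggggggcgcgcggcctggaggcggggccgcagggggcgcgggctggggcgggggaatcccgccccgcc
INSIG1, chr7:155297628-155297775, plus strand: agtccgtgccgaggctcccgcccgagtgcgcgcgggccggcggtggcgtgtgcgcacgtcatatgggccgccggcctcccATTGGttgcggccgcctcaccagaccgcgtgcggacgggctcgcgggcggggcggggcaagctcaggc
TM7SF2, chr11:65111622-65111844, plus strand: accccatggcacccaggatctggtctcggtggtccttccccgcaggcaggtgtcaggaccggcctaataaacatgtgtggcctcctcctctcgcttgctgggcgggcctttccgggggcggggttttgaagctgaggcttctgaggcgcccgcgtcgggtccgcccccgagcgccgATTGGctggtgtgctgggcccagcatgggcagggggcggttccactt
MSMO1, chr4:165327419-165327666, plus strand: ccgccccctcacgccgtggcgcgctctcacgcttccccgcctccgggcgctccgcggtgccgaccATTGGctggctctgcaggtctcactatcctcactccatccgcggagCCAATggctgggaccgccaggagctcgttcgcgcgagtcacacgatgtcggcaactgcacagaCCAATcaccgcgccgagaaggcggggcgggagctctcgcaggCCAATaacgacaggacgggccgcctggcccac
SCD, chr10:100346983-100347232, plus strand: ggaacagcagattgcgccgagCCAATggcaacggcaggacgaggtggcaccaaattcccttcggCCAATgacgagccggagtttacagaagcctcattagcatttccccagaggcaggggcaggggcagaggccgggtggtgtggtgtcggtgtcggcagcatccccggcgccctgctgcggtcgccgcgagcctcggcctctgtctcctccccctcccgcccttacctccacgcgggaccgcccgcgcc
MYLIP, chr6:16128836-16129085, plus strand: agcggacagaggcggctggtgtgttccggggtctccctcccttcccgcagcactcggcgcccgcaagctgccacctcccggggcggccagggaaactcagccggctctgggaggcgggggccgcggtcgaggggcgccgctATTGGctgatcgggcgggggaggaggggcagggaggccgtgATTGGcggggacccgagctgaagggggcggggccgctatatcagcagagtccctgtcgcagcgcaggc

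In SREBF2 the core of the sterol element lay at position -133 and the NF-Y motif at -106, counted from the RefSeq start. MYLIP held the NF-Y motif 2 times, at -109 and -68, and MVK, NSDHL and HSD17B7, which were not called at D3, held it too, whereas no window of SREBF1, INSIG2, FADS1, PMVK or CH25H, which fell, had it, and FADS2 had it in 1 of 2 windows, after the start. SCD, an established SREBP target, held it at -229 and -186, INSIG1 at -170 and TM7SF2 at -74.

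All 4 genes of fatty acid synthesis and desaturation fell in U251 at D3. FADS2, a front-end desaturase of polyunsaturated fatty acids (chromosome 11, 61792980 to 61867354), was at 127, 124 and 115 TPM in Untreated and 23.7, 21.3 and 18.0 TPM at D3. Its groups were far apart, with a log2 fold change of -2.49 with a standard error of 0.098 (limma, adjusted p = 2.51e-10), the lowest value of the 32 genes. FADS1, its partner in the same pathway (chromosome 11, 61799627 to 61829318), went from 132, 124 and 106 TPM to 67.6, 62.2 and 64.7 TPM (log2 fold change -0.88). FADS1 and FADS2 share 490 bases of exon on opposite strands, and since no setting for strand is stated, reads from that stretch cannot be told apart. SCD, which makes monounsaturated fatty acids (chromosome 10, 100347233 to 100364826), was at 189.7, 189 and 207 TPM in Untreated and 81.8, 84.5 and 83.3 TPM at D3, with a log2 fold change of -1.22 with a standard error of 0.054 (limma, adjusted p = 8.98e-10). FASN, the fatty acid synthase, went from 129, 146 and 133 TPM to 111, 92.5 and 113 TPM, a smaller drop of 0.37 on the log2 scale.

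The genes of sterol transport, efflux and oxysterol synthesis did not move as 1 group in U251 at D3, with 2 lower, 1 higher and 2 not called. MYLIP, a ubiquitin ligase for lipoprotein receptors and an LXR target (chromosome 6, 16129086 to 16148248), was at 14.3, 14.7 and 10.4 TPM in Untreated and 40.0, 30.3 and 35.9 TPM at D3. All D3 libraries lay above Untreated, with a log2 fold change of 1.37 with a standard error of 0.14 (limma, adjusted p = 3.07e-06). The LXR targets ABCA1 and ABCG1 were not called: ABCA1 was at 35.7, 35.7 and 32.9 TPM in Untreated and 41.3, 32.3 and 35.4 TPM at D3 (95% interval of the log2 fold change -0.18 to 0.29), and ABCG1 was low, at 0.545, 0.972 and 0.606 TPM and 1.48, 0.927 and 1.34 TPM (-0.14 to 0.94), a level at which this scale understates a fold change. STARD4, which carries cholesterol between membranes, fell from 33.1, 21.7 and 22.5 TPM to 12.8, 13.6 and 15.6 TPM (log2 fold change -0.81; limma, adjusted p = 3.67e-04). CH25H (chromosome 10, 89205629 to 89207317) was lower as well, at 10.9, 13.4 and 10.8 TPM in Untreated and 4.68, 7.34 and 5.86 TPM at D3, with a log2 fold change of -0.88 with a standard error of 0.19 (limma, adjusted p = 0.00221).

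**Figure D2:**
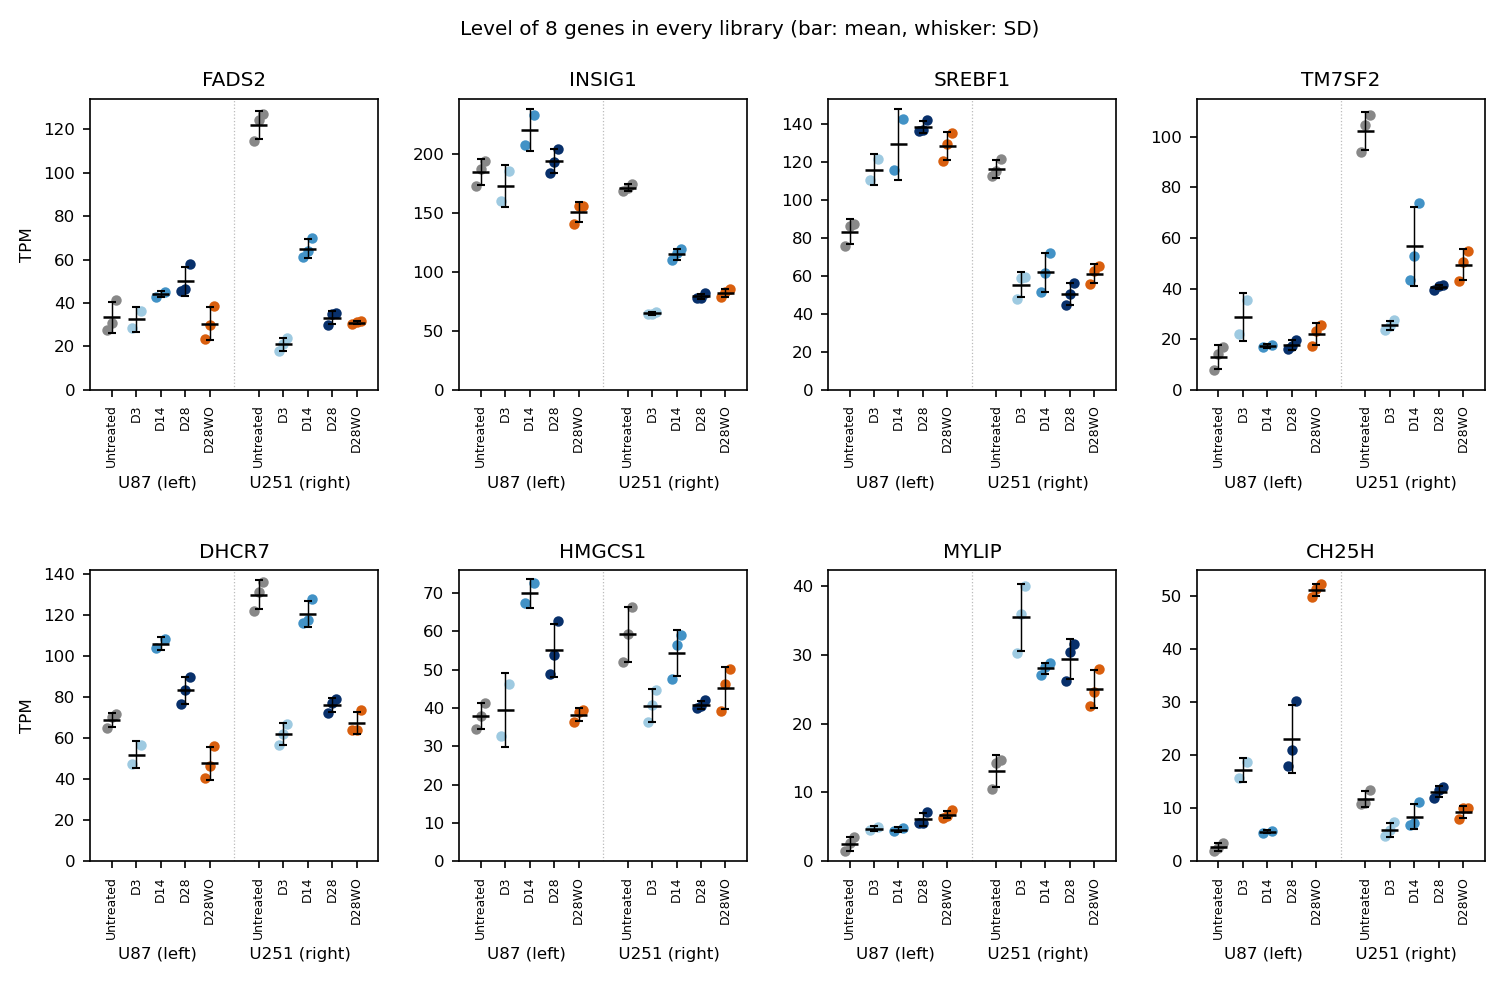
TPM (vertical axes, linear from 0) of 8 of the genes in every library, with the 5 groups of U87 on the left and those of U251 on the right of each panel. Points are libraries, bars are group means and whiskers are SD. In U251, FADS2, INSIG1, SREBF1 and TM7SF2 lie below Untreated in every treated group and MYLIP above it, while CH25H in U87 is highest at D28WO.

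By D14 most of these genes in U251 were above D3 and fewer were called against Untreated, although IFN-γ was still present according to the labels. IRF1 was also lower than at D3 in every D14 library. Against Untreated, 6 were lower and 1 higher, where 7.31% of all genes were lower and 13.8% higher, and the median was -0.14 (-0.23 relative to all genes). The split was 1 higher and 10 lower (9.86% and 9.77% of all genes) after quantile normalization and 1 higher and 9 lower (10.8% and 11% of all genes) with median-ratio size factors. ACTB (1055 to 1149.8 TPM) and GAPDH (869.7 to 992 TPM) were likewise above D3 and below Untreated in every D14 library, whereas EEF1A1 (669 to 738 TPM) overlapped D3. Compared with D3 directly, 19 genes were higher and 1 lower at D14, beside 12.8% and 12.6% of all genes. FADS2 (1.59), TM7SF2 (1.09), DHCR7 (0.95), MVD (0.89) and INSIG1 (0.82) rose most from D3 to D14 on the log2 scale, and ABCA1 fell, by 0.34. Of the 20 calls 15 held, and those of ABCA1, HMGCS1, IDI1, MVK and STARD4 were lost in at least 1 fit. None of the 7 mevalonate genes was called against Untreated at D14 by limma (1 had an unadjusted p under 0.05, ACAT2, at 0.19), and DHCR7 was at 117, 128 and 116 TPM, which overlapped its Untreated libraries. The 6 genes that were still lower were TM7SF2, SREBF1, SREBF2, INSIG1, SCD and FADS2. FADS2 was at 63.9, 61.4 and 70.0 TPM, between D3 and Untreated and overlapping neither, with a log2 fold change of -0.90 with a standard error of 0.098 (limma, adjusted p = 2.57e-05). SREBF1 showed no called rise from D3 to D14 (log2 fold change 0.15, 95% interval -0.12 to 0.41) and was at 61.8, 72.2 and 51.5 TPM. The call of SREBF2 (-0.45) was lost without Untreated replicate 1 and without D14 replicate 1, where its log2 fold change was -0.40 and -0.33. MYLIP was again the gene that rose, to 28.7, 28.2 and 27.1 TPM (log2 fold change 1.05; limma, adjusted p = 1.24e-04).

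At D28 under continued IFN-γ more of the genes were below Untreated again, as were ACTB (758 to 857 TPM) and GAPDH (555 to 676 TPM). Against Untreated 22 were lower and 1 higher, beside 14.7% and 25.9% of all genes, with a median of -0.39 (-0.56 relative to all genes). From D14 to D28 14 were lower and 1 higher, beside 9.48% and 11.3% of all genes. FADS2 was again lowest against Untreated, at 34.8, 29.7 and 35.2 TPM, with SCD at 82.7, 79.7 and 79.6 TPM and INSIG1 at 81.7, 78.1 and 78.2 TPM. None of these libraries reached the Untreated range. Their log2 fold changes were -1.85, -1.26 and -1.10, and that of SREBF1 was -1.19 (limma, adjusted p = 4.82e-09 for FADS2 and 3.65e-06 for SREBF1). Of the 12 genes between squalene and cholesterol 9 were lower, TM7SF2 most (-1.31), and of the 7 mevalonate genes 5, by 0.52 for HMGCS1 down to 0.30 for ACAT2. MYLIP was the gene that was higher (1.11), at 30.4, 31.6 and 26.1 TPM. CH25H was the 1 gene that rose from D14 to D28 (0.61), to 11.9, 13.4 and 14.0 TPM, which overlapped Untreated, and this call was lost after quantile normalization, without D14 replicate 2 or 3 and without any 1 D28 library. Of the 23 calls against Untreated, 17 held, and those of EBP, FASN, FDPS, HSD17B7, IDI1 and MVD were lost in at least 1 fit.

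In the U251 libraries labelled D28WO, by the labels 14 days without IFN-γ, most of the genes were below Untreated, with ACTB at 797 to 863 TPM and GAPDH at 636 to 655 TPM. At D28WO 25 of 32 were lower than Untreated and 2 higher, beside 13.4% and 14.3% of all genes, and the median was -0.63 (-0.65 relative to all genes). All 7 mevalonate genes were lower, from -0.79 for MVD and -0.76 for MVK to -0.27 for PMVK, a call that was lost when any 1 Untreated or D28WO library was left out. That of HMGCS1 (-0.38) was lost without Untreated replicate 1, Untreated replicate 3 or D28WO replicate 3, and the other 25 of the 27 calls held. FADS2 was at 31.5, 30.2 and 31.2 TPM, far from Untreated, with a log2 fold change of -1.94 with a standard error of 0.098 (limma, adjusted p = 4.50e-09). INSIG1 (-1.05), TM7SF2 (-1.04), DHCR7 (-0.94), EBP (-0.93) and SREBF1 (-0.92) followed. Set against D28, 7 genes were lower and 2 higher at D28WO, beside 18.8% and 10.3% of all genes, a share of lower calls close to that of all genes. With median-ratio size factors this split was 3 higher and 4 lower (14.4% and 15.5% of all genes). SCD was 1 of the 2 that were higher than at D28, at 133, 122 and 130.4 TPM, between D28 and Untreated and overlapping neither, with a log2 fold change of 0.66 with a standard error of 0.054 (limma, adjusted p = 1.28e-06). The other was ABCA1, which reached 47.5, 45.4 and 46.7 TPM, above every D28 and every Untreated library, with a log2 fold change of 0.69 with a standard error of 0.11 (limma, adjusted p = 3.44e-04). MVK (-0.71), EBP (-0.61) and STARD4 (-0.57) had the lowest values of this comparison. Of its 9 calls 5 held, and those of FASN, MSMO1, SQLE and STARD4 were lost in at least 1 fit, STARD4 after quantile normalization. MYLIP remained above Untreated, at 24.5, 28.0 and 22.6 TPM (log2 fold change 0.89).

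**Figure D3:**
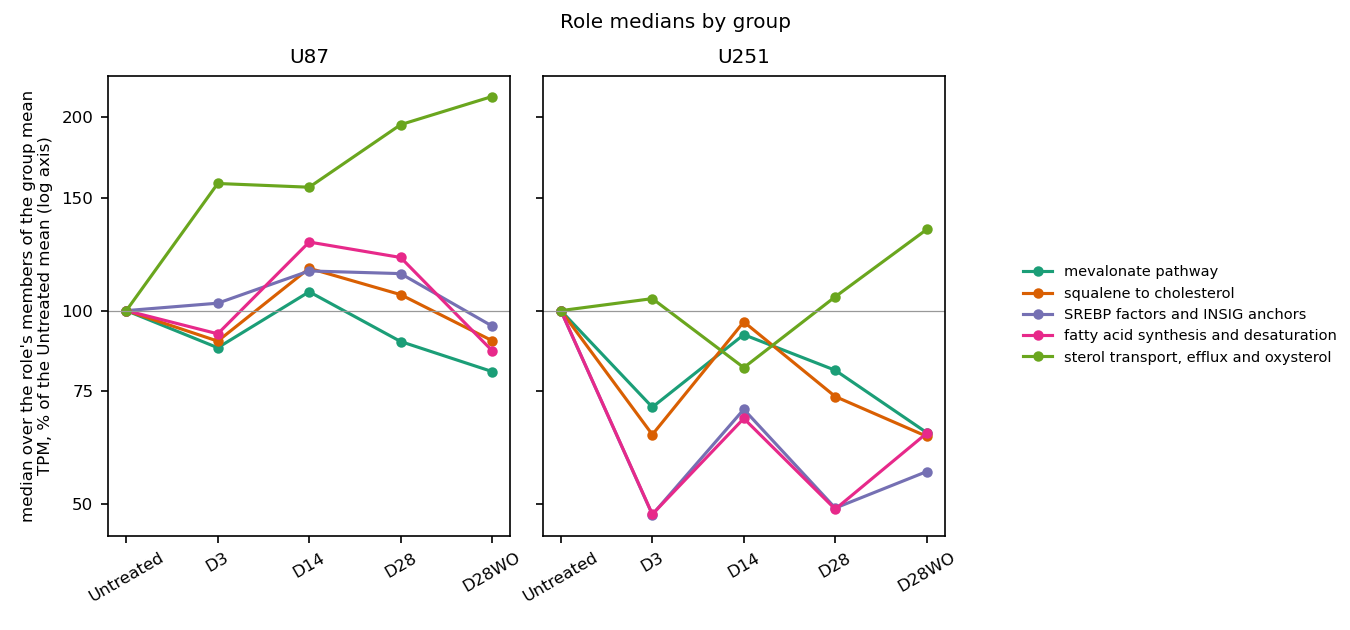
For each role, the median over its genes of the group mean TPM, as a percentage of the Untreated mean (vertical log axis), in the 5 groups of U87 (left) and U251 (right). In U251 the regulators stood at 48.1% (D3), 70.2% (D14), 49.2% (D28) and 56.1% (D28WO), and in U87 the 4 tested transport, efflux and oxysterol genes reached 216% at D28WO.

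U87 showed no such common fall at D3. Of 31 genes 5 were higher and 5 lower, beside 12.4% and 4.28% of all genes, and the median was -0.067 (-0.27 relative to all genes). This split depended on the scaling, with 2 higher and 5 lower (5.14% and 4.61% of all genes) after quantile normalization and 2 higher and 11 lower (8.0% and 8.51% of all genes) with median-ratio size factors. Of the 10 calls only that of CH25H held. Without D3 replicate 2 there were 2 called genes, without Untreated replicate 3 there were 4 and without D3 replicate 3 there were 6. CH25H went from 3.50, 1.95 and 2.50 TPM in Untreated to 18.7 and 15.6 TPM at D3, without overlap, with a log2 fold change of 2.33 with a standard error of 0.23 (limma, adjusted p = 4.33e-05). TM7SF2 was at 14.2, 17.0 and 7.97 TPM in Untreated and 35.6 and 22.2 TPM at D3. Its log2 fold change was 1.11 (limma, adjusted p = 0.022), a call that was lost after quantile normalization, without Untreated replicate 3 or without D3 replicate 2. SREBF1 (0.47), LSS (0.35) and STARD4 (0.34) were the others called higher, and EBP (-0.57), SCD (-0.42), ACAT2 (-0.39), PMVK (-0.39) and FDFT1 (-0.31) those called lower. FADS2, the deepest fall of U251, was at 31.0, 41.5 and 27.8 TPM in Untreated and 28.4 and 36.5 TPM at D3 in U87 (95% interval of the log2 fold change -0.50 to 0.43), and INSIG1 at 187, 173 and 194 TPM and 186 and 160.1 TPM (-0.29 to 0.099). These intervals do not reach the falls measured in U251, though the lines were not tested against each other.

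**Figure D4:**
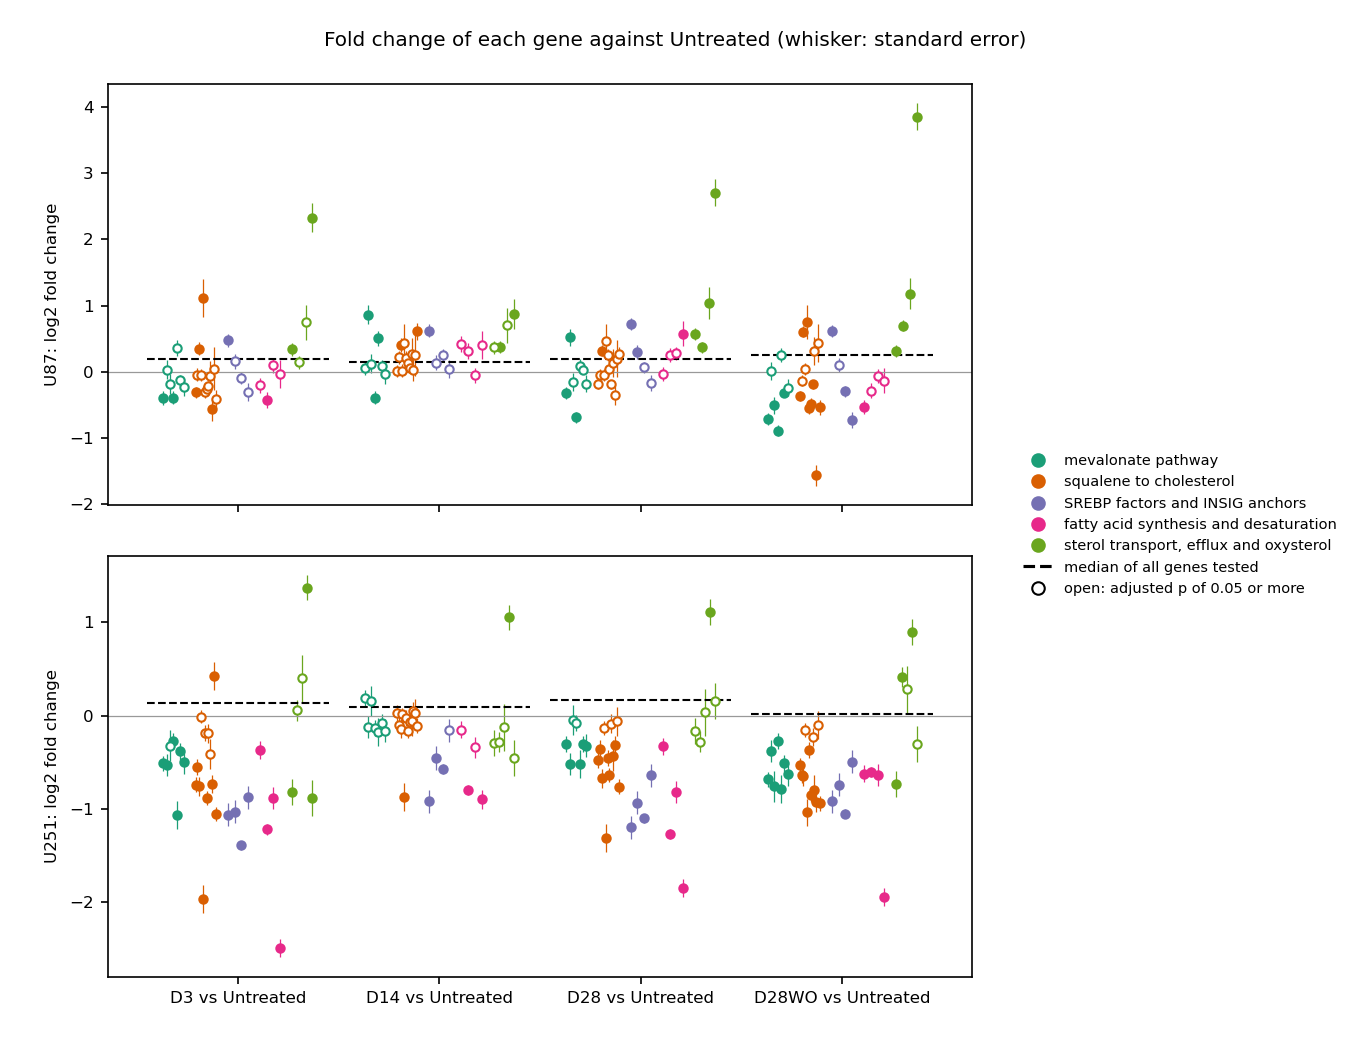
Log2 fold change against Untreated of each gene (points, coloured by role, whiskers are standard errors) at D3, D14, D28 and D28WO in U87 (top) and U251 (bottom), on vertical axes of different range. Filled points have an adjusted p under 0.05 and open points do not, and the dashed line is the median of all genes tested. In U251 most filled points lie below the dashed line, with FADS2 lowest at D3, D28 and D28WO, and in U87 CH25H lies highest at these times.

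In the U87 libraries labelled D14, whose IRF1 was at the Untreated level, 7 genes were higher than Untreated and 1 lower, beside 4.14% and 1.02% of all genes. Set against D3, 6 were higher and 1 lower, beside 1.47% and 3.32% of all genes. HMGCS1 was at 41.4, 37.9 and 34.6 TPM in Untreated and 67.3 and 72.7 TPM at D14, with a log2 fold change of 0.87 with a standard error of 0.15 (limma, adjusted p = 0.0118). DHCR7 was at 56.5 and 47.1 TPM at D3 and 108 and 104 TPM at D14, without overlap, with a log2 fold change of 1.02 with a standard error of 0.14 (limma, adjusted p = 0.00134), and ACAT2, FASN, SCD, HMGCS1 and LBR were also called higher than at D3. CH25H dropped back to 5.35 and 5.78 TPM, by 1.46 on the log2 scale from D3 (limma, adjusted p = 0.005), a call that was lost without D3 replicate 2 and without D14 replicate 2. Of the 7 calls against D3 that of DHCR7 held, but the fit to only D3 and D14 called 0 genes by limma (12 at an unadjusted p under 0.05). No call against Untreated at D14 held. The count went from 8 to 5 without Untreated replicate 1, to 4 without Untreated replicate 2 and to 2 without Untreated replicate 3. Without D14 replicate 2 there were 0 called genes and without D14 replicate 3 there was 1, and leaving out a D28WO library, which enters only the estimate of the spread and the filter, gave 3 to 5. Against D3 the count of 7 went to 2 without D14 replicate 2, to 3 without D14 replicate 3 or D3 replicate 3, and to 4 without D3 replicate 2. With quantile normalization the split against Untreated was 3 higher and 1 lower (1.16% and 0.938% of all genes) and that against D3 9 higher and 1 lower (2.55% and 3.6% of all genes), and with median-ratio size factors they were 1 higher and 1 lower (1.93% and 1.42% of all genes) and 5 higher and 1 lower (1.55% and 3.3% of all genes).

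At D28 9 genes of U87 were higher than Untreated and 2 lower, beside 17.2% and 6.55% of all genes, and the median was 0.13 (-0.059 relative to all genes). Scaling moved this split to 4 higher and 4 lower (7.3% and 7.4% of all genes) after quantile normalization and to 4 higher and 6 lower (11.2% and 12.8% of all genes) with median-ratio size factors, and 4 of the 11 calls held. From D14 to D28 1 gene was called higher and 0 lower, beside 2.94% and 1.12% of all genes, and by limma at an unadjusted p under 0.05 2 were higher and 9 lower. The gene called was CH25H, which reached 20.9, 17.8 and 30.1 TPM, with a log2 fold change of 1.84 with a standard error of 0.23 (limma, adjusted p = 4.74e-04), a call that was lost in the fit to only D14 and D28, where limma called 0 genes (11 at an unadjusted p under 0.05). All 4 tested genes of transport, efflux and oxysterol synthesis were higher than Untreated, with STARD4 at 0.57, ABCA1 at 0.37, MYLIP at 1.04 and CH25H at 2.70 (log2 fold change), but the call of ABCA1 was lost in both other scalings and that of MYLIP with quantile normalization. SREBF1 was at 75.7, 86.5 and 87.6 TPM in Untreated and 136, 137 and 142 TPM at D28, without overlap and opposite in sign to U251, with a log2 fold change of 0.73 with a standard error of 0.089 (limma, adjusted p = 1.93e-04), a call that held. PMVK fell from 81.2, 82.6 and 75.7 TPM to 47.8, 47.7 and 52.7 TPM (log2 fold change -0.68; limma, adjusted p = 2.17e-04). Without Untreated replicate 3 the count fell to 6 genes, and without D28 replicate 1 to 7.

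Most of the synthesis genes that changed in the U87 libraries labelled D28WO were lower, both against Untreated and against D28, although IRF1 did not tell D28WO from D28. At D28WO 13 of 31 were lower and 7 higher, beside 13.4% and 28.6% of all genes, and the median was -0.14 (-0.39 relative to all genes). With median-ratio size factors there were 5 higher and 17 lower (20.1% and 20.7% of all genes), and with quantile normalization 5 higher and 13 lower (16.0% and 19.2% of all genes). ACTB was at 1301 to 1788 TPM in Untreated and 778 to 900.1 at D28WO, and GAPDH at 1334 to 1702 and 735 to 928, below Untreated and D28 in every library, whereas EEF1A1 (633 to 685 TPM) overlapped Untreated (646 to 739) and D28 (608 to 665), and their part in the result was not tested. Directly against D28, 13 were lower and 3 higher, beside 8.44% and 9.9% of all genes. EBP, the sterol isomerase (chromosome X, 48521799 to 48528716), had the deepest drop, from 165, 173 and 155 TPM in Untreated and 118, 132 and 136 TPM at D28 to 49.1, 44.4 and 75.8 TPM. D28WO overlapped neither group, with a log2 fold change of -1.56 with a standard error of 0.16 (limma, adjusted p = 1.63e-05) against Untreated and -1.21 against D28. PMVK (-0.88), INSIG2 (-0.72), ACAT2 (-0.71), LBR (-0.55), DHCR7 (-0.53) and FASN (-0.53) were lower than Untreated as well. All 4 fatty acid genes were lower than at D28, FADS2 by 0.71, SCD by 0.54, FASN by 0.51 and FADS1 by 0.34 on the log2 scale. The call of FADS1 was lost with the replicate block, without any 1 D28 library and without D28WO replicate 1 or 2, and that of FADS2 without D28 replicate 1 and without D28WO replicate 1 or 2. Of the calls against D28 10 held, and without D28WO replicate 2 the count of the 31 genes called in this comparison went from 16 to 10.

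By role, 4 of the 7 mevalonate genes of U87 were lower than Untreated at D28WO, 6 of the 12 between squalene and cholesterol were lower and 2 higher, and of the regulators 2 were lower and 1 higher. PMVK, which phosphorylates mevalonate phosphate (chromosome 1, 154924740 to 154936719), was at 81.2, 82.6 and 75.7 TPM in Untreated and 41.7, 40.5 and 46.3 TPM at D28WO, without overlap, with a log2 fold change of -0.88 with a standard error of 0.085 (limma, adjusted p = 1.14e-05). It was already lower at D28, and the change from D28 to D28WO was not called (-0.20, 95% interval -0.39 to -0.017). INSIG2 went from 127, 138 and 145 TPM to 79.5, 82.5 and 84.7 TPM and INSIG1 from 187, 173 and 194 TPM to 141, 156 and 156 TPM, a smaller fall of 0.29 that was lost after quantile normalization and without D28WO replicate 1. The desaturases FADS1, FADS2 and SCD, which were lower than at D28, were not called against Untreated, with log2 fold changes of -0.062, -0.14 and -0.28. FDPS (-0.24, 95% interval -0.52 to 0.04) and CYP51A1 (0.043, 95% interval -0.15 to 0.23) were not called. Of the 20 calls against Untreated 16 held, the exceptions being INSIG1, NSDHL, STARD4 and TM7SF2.

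CH25H, ABCA1 and MYLIP went the other way in the U87 libraries labelled D28WO, while ABCG1 was too low to be tested. CH25H reached 51.2, 52.2 and 49.8 TPM, above every other library of the line, with a log2 fold change of 3.85 with a standard error of 0.20 (limma, adjusted p = 1.44e-07) against Untreated and 1.15 against D28. ABCA1 rose from 50.8, 57.3 and 57.3 TPM in Untreated to 93.1, 90.3 and 86.7 TPM, without overlap, with a log2 fold change of 0.70 with a standard error of 0.084 (limma, adjusted p = 5.57e-05). MYLIP was low throughout, at 2.62, 3.53 and 1.45 TPM in Untreated, and rose to 7.38, 6.64 and 6.34 TPM (log2 fold change 1.18; limma, adjusted p = 0.00191). SREBF1 was at 129, 120.4 and 135 TPM, a rise of 0.62, and LSS, the lanosterol synthase, at 76.5, 73.8 and 86.8 TPM, a rise of 0.61 on the log2 scale. TM7SF2 (0.76) and STARD4 (0.31) were also called higher, but not after quantile normalization or with median-ratio size factors. SREBF2, the factor most tied to cholesterol synthesis, stayed at 74.5, 85.6 and 78.6 TPM in place of 70.0, 75.7 and 76.1 TPM (95% interval of the log2 fold change -0.12 to 0.33).

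**Figure D5:**
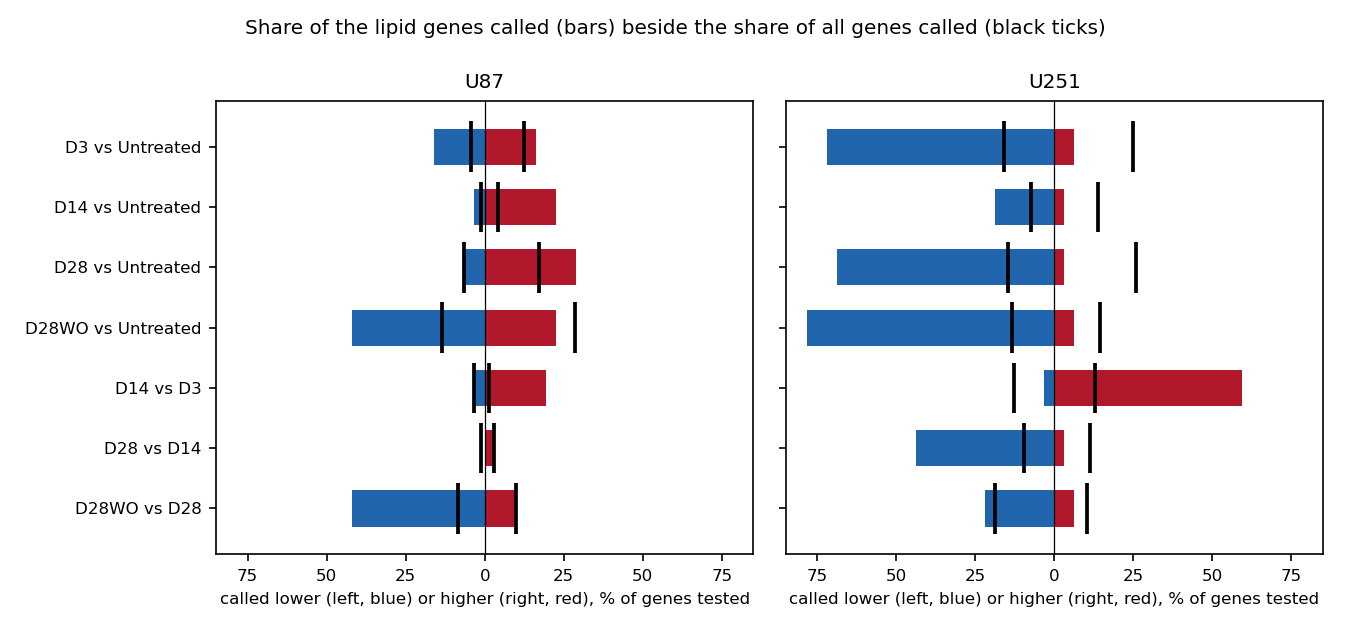
Bars give the percentage of the 32 genes (31 in U87) called lower (blue, left) or higher (red, right) in each of the 7 comparisons of U87 and U251, and black ticks the percentage of all genes tested called in that direction. Bars to the left run furthest past their tick in U251 at D3, D28 and D28WO against Untreated (23, 22 and 25 of 32 genes).

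The neighbouring lipid pathways were followed in 64 further genes in 7 lists, of which 63 were tested in each line. In U251 at D3 22 of the 63 were lower and 9 higher, and at D28WO 19 and 8, with medians of -0.11 and -0.14, nearer to those of all genes (0.13 and 0.015) than the medians of the 32 genes were. These counts are 34.9% lower and 14.3% higher at D3, beside 16.0% and 24.9% of all genes, and 30.2% and 12.7% at D28WO, beside 13.4% and 14.3%. The lists named next are read against the same shares, which at D28 were 14.7% lower and 25.9% higher. With median-ratio size factors the counts at D28 moved from 11 higher and 20 lower to 8 higher and 27 lower (21.0% and 19.5% of all genes), and those at D28WO were 5 higher and 23 lower (13.2% and 14.6% of all genes). The list next to the desaturases, fatty acid chain building and elongation, had 7 lower and 0 higher of 12 at D3 and 8 lower and 0 higher of 12 at D28WO. In it ACACA, the carboxylase that makes malonyl-CoA, went from 122 ± 7.87 TPM (SD, n = 3) in Untreated to 58.0 ± 7.16 at D28, with a log2 fold change of -1.07 with a standard error of 0.11 (limma, adjusted p = 3.65e-06). The isoprenoid branch and prenylation, which draws on the same mevalonate, had 1 lower and 1 higher of 11 at D3 and 0 lower and 0 higher of 11 at D28WO, and at an unadjusted p under 0.05 1 of its genes at D28WO. The machinery that activates SREBP and turns over INSIG had 2 lower and 0 higher of 6 at D3 and 5 lower and 0 higher of 6 at D28. Fatty acid oxidation had 4 lower and 2 higher of 9 at D3. Glycerolipid synthesis and lipid droplets had 1 lower and 1 higher of 7 at D28, where DGAT2, which completes triglycerides, rose by 1.02.

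Genes of cholesterol uptake, intracellular transport and esterification changed in both directions in U251, with 6 lower and 3 higher of 13 at D3. GRAMD1B, which moves cholesterol from the plasma membrane to the endoplasmic reticulum, went from 2.88 ± 0.631 TPM (SD, n = 3) in Untreated to 18.2 ± 2.48 at D3, 11 ± 3.31 at D14 and 30.4 ± 0.495 at D28, and stood at 16.6 ± 0.926 at D28WO. Its rise was 2.31 at D3 and 3.03 at D28 (log2 fold change; limma, adjusted p = 5.45e-07 and 3.26e-08). NPC1, the lysosomal cholesterol exporter, rose by 1.16 at D28 (limma, adjusted p = 3.60e-07), from 49.5 ± 5.86 to 111 ± 2.23 TPM, and TMEM97, a sterol-responsive binding partner of NPC1, fell by 1.04 at D28WO. Among the LXR receptors and further LXR targets 0 lower and 3 higher of 5 genes were called at D28, and SMPDL3A, a phosphodiesterase, rose by 1.00. In U87 the 63 genes gave 3 higher and 6 lower at D3 and 13 higher and 15 lower at D28WO, counts that median-ratio size factors moved to 1 higher and 14 lower (8.0% and 8.51% of all genes) and to 5 higher and 27 lower (20.1% and 20.7% of all genes). The shares were 4.76% higher and 9.52% lower at D3, beside 12.4% and 4.28% of all genes, and 20.6% and 23.8% at D28WO, beside 28.6% and 13.4%. PLIN2, the coat protein of lipid droplets, was the neighbouring gene with the largest called rise against Untreated in U87, from 0.944 ± 0.906 TPM (SD, n = 3) to 4.68 ± 0.903 (n = 2) at D14 and 4.31 ± 2.42 (n = 3) at D28, with log2 fold changes of 1.64 and 1.46 (limma, adjusted p = 0.0456 and 0.0163). AGPAT2, an acyltransferase of glycerolipid synthesis, rose by 1.33 at D28WO, and PDSS1, which builds the coenzyme Q side chain, fell by 1.21.

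Coordinates are those of GENCODE release 44 on GRCh38, in which 15 of the 32 genes share exon bases with another gene, 13 of them with a gene on the opposite strand. ACAT2 shares 454 of its 2639 exon bases with TCP1 and 133 with SOD2, both on the opposite strand and more highly expressed, at means of 253 and 257 TPM in U251. The neighbours of HMGCS1, IDI1 and SREBF2 on the opposite strand were at most 1.84 TPM on average in both lines. CYP51A1 shares 68.2% and 67.8% of its exon bases with 2 unnamed genes on its own strand, the higher of which averaged 3.74 TPM in U87, and EBP 36.4% with 1 that averaged 0.927 TPM. INSIG1, SCD, DHCR7, MYLIP and CH25H had no such overlap.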

How the data were processed

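Bulk RNA-seq libraries (TruSeq, paired-end reads) of 30 cultures were aligned and counted by the authors with STAR and featureCounts on GRCh38, and the authors deposited 1 table of TPM for each line. How the TPM were computed, and the strand setting, are not given in the sources used here. TPM keeps no read depth, so the precision comes only from the spread between libraries. Samples were grouped by their titles, and 2 like-named columns of U87 were left out.

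Genes averaging 0.5 TPM or more in a line were tested on log2(TPM + 1) with limma 3.58.1 (lmFit, eBayes with a trend, 5 groups in 1 fit, no covariate) in R 4.3.3, with Benjamini-Hochberg adjustment over all genes tested. A fold change on this scale understates that of low genes. Python 3.11.15, pandas 2.3.3, numpy 2.4.6 and matplotlib 3.10.9 were used for the rest. The fit was tested on simulated data: for D28 vs Untreated it recovered 59.7% of the genes changed by 1 on the log2 scale, and 29.9% of those changed by 0.5, among the 22918 of U87, and 64.2% and 35.8% among the 23667 of U251, with 7 false calls in each. In that simulation only D28 was changed, for 67 genes at each of these sizes and 66 at 1.5. Many more genes were called in the data, 3945 higher and 1500 lower in U87 at D28, so these shares may not carry over. No pair of replicates was a copy, since at most 3.11% of genes averaging 1 TPM or more had values equal within a relative 0.0001. Alternatives changed the pseudocount, filter, scaling, groups in the fit, replicate block, array weights, call limits or 1 library.

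All 32 genes were named, and of the neighbouring pathways those called against Untreated with a log2 fold change past 1 either way. These genes, lists and tests were chosen with earlier results of these data known. Promoter sequences are from RefSeq (GRCh38.p14), and another motif that was searched is not reported here.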

Additional observations from a re-analysis of the deposited data

Results flagged for a closer look

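In 27 cases, for 14 genes, every library of a treated or withdrawn group lay outside the Untreated range, in opposite directions in U87 and U251. Of 31 of the lipid genes tested in both lines, 6 lay above Untreated in U87 and below it in U251 (D3), 7 (D14), 9 (D28) and 5 (D28WO), beside 4.6%, 4.11%, 3.9% and 4.26% of the 20473 genes tested in both lines. The opposite pattern held for 0 of them, beside 1.95% to 2.55% of all genes. The tables of the lines were normalized separately, so the difference between the lines was not tested. The values below are log2 fold changes against Untreated, U87 first, and all are positive in U87 and negative in U251. They are not corrected for the shift of all genes, whose median in U87 was 0.20 (D3), 0.15 (D14), 0.19 (D28) and 0.25 (D28WO). SREBF2 of U87 at D3 lay below that median, and LBR and DHCR7 of U87 at D28 lay little above it. For HMGCS1, the mevalonate pathway synthase, they were 0.52 and -0.52 at D28. For LSS, the lanosterol cyclase, they were 0.35 and -0.76 at D3, 0.41 and -0.14 at D14, 0.32 and -0.67 at D28, and 0.61 and -0.65 at D28WO. For TM7SF2, the sterol reductase, they were 1.11 and -1.96 at D3, and 0.76 and -1.04 at D28WO. For LBR, the other sterol reductase, they were 0.26 and -0.45 at D28. For DHCR7, the last enzyme of cholesterol synthesis, they were 0.27 and -0.76 at D28. For SREBF1, the factor of fatty acid synthesis, they were 0.47 and -1.06 at D3, 0.62 and -0.92 at D14, 0.73 and -1.19 at D28, and 0.62 and -0.92 at D28WO. For SREBF2, the factor of cholesterol synthesis, they were 0.16 and -1.03 at D3, and 0.30 and -0.93 at D28. For INSIG1, the SREBP anchor, they were 0.25 and -0.57 at D14. For SCD, the desaturase of saturated fatty acids, they were 0.31 and -0.80 at D14. For FADS1, the desaturase of polyunsaturated fatty acids, they were 0.28 and -0.82 at D28. For FADS2, its partner, they were 0.41 and -0.90 at D14, and 0.58 and -1.85 at D28. For STARD4, the sterol carrier, they were 0.34 and -0.81 at D3, 0.37 and -0.29 at D14, and 0.31 and -0.73 at D28WO. For ABCA1, the cholesterol exporter, they were 0.37 and -0.29 at D14, and 0.37 and -0.28 at D28. For CH25H, the oxysterol enzyme, they were 2.33 and -0.88 at D3, and 3.85 and -0.30 at D28WO. LSS and SREBF1 appear in all 4 groups. The U87 libraries labelled D14 are those whose IRF1 was at the Untreated level. Of the 54 values 13 were not called, such as those of SREBF2 in U87 at D3 and of CH25H in U251 at D28WO. In U87 at D28 the calls of HMGCS1, LSS, SREBF2, FADS2 and ABCA1 were lost in both other scalings, and that of SREBF1 held.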

How the results depend on the processing

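Of 199 called results of single genes, 133 stayed called in the same direction with the other pseudocount, both other scalings, the replicate block and each library left out, and none turned around. With the study's limits (a call at 0.05 and a log2 fold change past 1 either way) the counts against Untreated in U251 were 9 (D3), 1 (D14), 6 (D28) and 3 (D28WO), with 2 for D14 vs D3, and 0 for D28 vs D14 and for D28WO vs D28, where limma called 15 and 9 without the fold limit. In U87 they were 2 at D3, 0 at D14 (8 without the fold limit), 2 at D28, 3 at D28WO, 2 for D14 vs D3, 1 for D28 vs D14 and 2 for D28WO vs D28. Past these limits were 14.3%, 5.76%, 15.2%, 7.45%, 6.49%, 5.84% and 9.26% of all genes in U251 and 6.23%, 2.1%, 7.38%, 14.9%, 2.63%, 2.12% and 5.53% in U87, in the same order. Of the 9 at D3 in U251 8 were lower, of the 6 at D28 5, and at D28WO all 3.

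Other settings moved the count over 1.5 times in U251 only for D14 vs Untreated, 11 after quantile normalization in place of 7. In U87 fits to only the 2 compared groups gave 1 for D3 vs Untreated and 0 for D14 vs Untreated, D14 vs D3 and D28 vs D14, where limma had 13, 12 and 11 genes at an unadjusted p under 0.05. For D14 vs Untreated there were 3 without a filter, 4 after quantile normalization, 2 with median-ratio size factors and 3 with the replicate block. For D28 vs D14 there were 2 with a filter at 1 TPM, 3 after quantile normalization and 2 with array weights. The cause was not tested. Leaving the U87 D14 libraries out, chosen after the data were seen, gave 9 (D3), 10 (D28) and 19 (D28WO) against Untreated and 15 for D28WO vs D28.

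Without 1 library, the count in U87 ranged from 2 to 10 at D3, 0 to 8 at D14 (11 genes at an unadjusted p under 0.05 by limma where it was 0), 6 to 12 at D28, 17 to 21 at D28WO, 2 to 7 for D14 vs D3, 1 to 2 for D28 vs D14 and 10 to 16 for D28WO vs D28. It was 2 for D28 vs D14 without D3 replicate 2, D3 replicate 3 or D28WO replicate 3. In U251 it ranged from 23 to 27, 6 to 8, 18 to 24 and 25 to 28 against Untreated, and from 17 to 21, 10 to 16 and 6 to 10 in the direct comparisons, where it was 10 for D28 vs D14 without D28 replicate 2 and 6 for D28WO vs D28 without D28 replicate 3 or D28WO replicate 3.

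Same-numbered libraries showed no sign of deviating together (correlation of deviations -0.0375 to 0.048 in U251 and -0.058 to 0.0472 in U87). With so few libraries in each group, these correlations over all genes cannot exclude that the numbers are a pairing. The replicate block moved no other count over 1.5 times.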
